A study of Homo sapiens with 49 samples.

Results

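The comparison described here set Ishikawa cells kept with 100 pM ethinyl estradiol (EE) against cells kept with the ethanol vehicle, and covers all genes that the arrays measured. Its members were chosen by their labels: the 6 arrays of the 100 pM group and the 6 vehicle arrays, so 12 of the 49 arrays of the series. Ishikawa is an established line of human endometrial adenocarcinoma cells, and EE is the synthetic estrogen of oral contraceptives. Every culture stood in the same phenol red-free, CSS-supplemented medium with the same share of ethanol for 72 h (the medium in which the line was kept before held an insulin supplement), with part of the treatment medium renewed daily, and total RNA was read on arrays of the Affymetrix HT HG-U133 Plus PM type. The other groups used below received EE at 0.1 pM (6 arrays), 0.3 pM (7 arrays), 10 pM (6 arrays) or 1000 pM (6 arrays). Groups at 1 pM and 3 pM (6 arrays each) appear in a figure and in the shared estimate of spread, which came from all 49 arrays. Whether the 6 replicates came from cultures of their own is not given in the labels. The p-values rest on the spread between arrays, and part of that may be technical.

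Estrogens bind the nuclear receptors ERα (gene ESR1) and ERβ (ESR2), which then act as transcription factors, either on estrogen response elements, a pair of inverted GGTCA arms, or through other factors such as AP-1. In the endometrium this signalling drives growth of the epithelium and prepares it for progesterone, because the progesterone receptor gene is itself a target. Ishikawa cells are widely used as a model of it because they keep ERα and raise alkaline phosphatase activity when given estrogen. A culture of this line holds no stromal, immune or vascular cells, so responses that need those cells cannot appear.

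Values are log2 expression levels of probe sets, with 1 probe set standing for each of 11075 genes. A level of 4 was taken as the floor under which a signal has no reliable size, so levels but no size of change are given for a gene with a group mean under it, other than a bound against a group wholly under it. A gene was called when limma gave an adjusted p under 0.05, over all genes of the contrast, and "higher" and "lower" mean 100 pM relative to vehicle. Genes given below as not passing the test were chosen after their values were seen, and of these XBP1, NOTCH1, RAB27A, MYO5A, CTNNB1 and AXIN2 had the opposite sign without vehicle replicate 5 (−0.13, 0.05, −0.04, −0.14, −0.03 and −0.15). The 12 arrays had median levels of 2.97 to 3.05, and 38.5% to 39.4% of their probe sets lay above the floor. Vehicle replicate 5 stood apart: beta-actin read 4.62 higher (log2) at its 3′ end than at its 5′ end there, against 0.85 to 2.06 in the other 11 arrays and 1.12 to 1.62 in the 100 pM arrays, and the like difference for GAPDH was 1.79 against −0.19 to 0.19. The SD of its genes from the group mean was 0.561, against 0.120 to 0.206 in the others. It was the highest or the lowest vehicle array for 81.6% of all genes. Results are therefore given with and without it. Both analyses keep the other 5 vehicle arrays, so neither is independent of the other. Counts of called genes are also given under other settings, and the part of vehicle replicate 5 in a result was not tested beyond these.

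At 100 pM, 426 of 11075 genes were higher (3.85%) and 694 were lower (6.27%), so 1120 in all (10.1%). Rises were fewer but larger. By the fitted change, which includes genes near the floor, 240 of the called genes rose and 466 fell at least 1.25-fold, 99 rose and 96 fell at least 1.5-fold, 47 rose and 8 fell at least 2-fold, and 11 rose and 0 fell at least 4-fold. The median log2 change over all genes was −0.02, and the median SE was 0.0957. In 1098 of the 1120 called genes the 6 arrays of 100 pM lay either all above or all below the vehicle mean.

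The number of called genes changed without vehicle replicate 5, while genes called with a change of at least 2-fold kept their call. Without it 264 genes were higher (2.38%) and 446 lower (4.03%). Of the 1120 genes called with all arrays, 595 were also called without it, 235 upward and 360 downward, and 0 were called in the opposite direction. All 55 genes called with a change of at least 2-fold kept their call without this array, as did 174 of the 195 with at least 1.5-fold. The 525 genes called only with it had a median absolute log2 change of 0.33, against 0.45 for those called in both, and 115 genes were called only without it. Leaving out vehicle replicate 6 instead raised the count to 1790 genes, with 1158 lower and 293 changed at least 1.5-fold. With the spread estimated from the 12 arrays of vehicle and 100 pM alone, 290 genes were called, 135 higher and 155 lower. Another setting left out the 4 arrays of the series with the highest beta-actin 3′ minus 5′ difference, vehicle replicate 5 among them. It gave 1220 called genes, 428 higher and 792 lower. The count was 1092 with that difference as a covariate and 1434 with array weights.

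**Figure D1:**
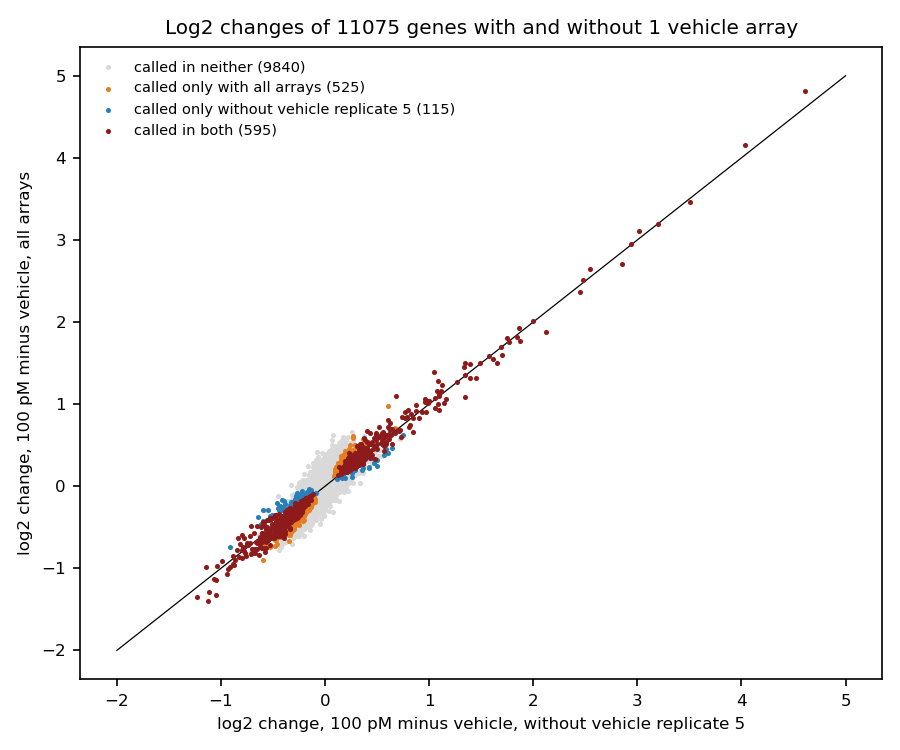
Log2 change at 100 pM against vehicle of 11075 genes, with all arrays (vertical axis) and without vehicle replicate 5 (horizontal axis); each point is a gene, coloured by where it was called, and the line marks equal values. The 595 genes called in both analyses include every point beyond a log2 change of 1 in the analysis of all arrays, and the 525 called only with all arrays lie nearer 0.

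In 220 genes all 100 pM arrays lay above all vehicle arrays (1.99%), and in 262 all lay below (2.37%). Of the 426 genes called higher 191 were separated in this way and 235 overlapped, and of the 694 called lower 230 were separated and 464 overlapped. The 20 largest rises were separated without exception. Among the 20 largest falls 18 were separated, the exceptions being COL26A1 and CCN2.

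The largest rise was that of PGR, the progesterone receptor, a transcription factor that carries the endometrial response to progesterone. Its log2 level was 3.00 (lowest), 4.09 (median) and 4.68 (highest) in vehicle and 8.73, 8.85 and 8.89 at 100 pM. The groups lay far apart, and the 100 pM arrays differed from each other far less (SD 0.06) than the vehicle arrays (SD 0.57), which lay around the floor. The change was 4.81 ± 0.21 (SE), or 28.1-fold (limma adjusted p = 2.13e-23), and 4.61 ± 0.20 without vehicle replicate 5, the lowest vehicle array. Its other entering probe set, all of whose vehicle arrays lay under the floor, went from 2.05 ± 0.18 to 4.58 ± 0.11 (SD, n = 6 each). OLFM1, a secreted glycoprotein of the olfactomedin family, went from 4.02, 4.54 and 5.89 in vehicle to 8.71, 8.92 and 9.08 at 100 pM. All 100 pM arrays again lay above all vehicle arrays, with a change of 4.16 ± 0.26 (17.8-fold, limma adjusted p = 1.11e-17), and its second probe set moved by 4.02.

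The alkaline phosphatase that rose was ALPG, the germ cell type enzyme, whose log2 level was 3.18, 3.59 and 3.83 in vehicle and 6.53, 6.74 and 7.08 at 100 pM. Every vehicle array lay under the floor and every 100 pM array well above it. It was therefore at least 6.84-fold higher (limma adjusted p = 1.45e-25), this bound being taken with the vehicle arrays set to the floor. The probe set of ALPP, the placental enzyme, stayed under the floor in both groups (2.31 ± 0.22 and 3.03 ± 0.08, SD, n = 6 each). A second probe set assigned to ALPG also lay under it in both (2.85 ± 0.24 and 3.00 ± 0.25). The RNAs of ALPP and ALPG differ little, and that of either may reach the probe set assigned to ALPG.

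The promoters of PGR and ALPG are shown. PGR had the largest rise, and ALPG is the gene assigned to the alkaline phosphatase probe set that rose. Each run is the 250 bases before the annotated start on the gene's own strand, from RefSeq on GRCh38.p14, at chr11:101129078-101129327 on the minus strand for PGR and chr2:232406594-232406843 on the plus strand for ALPG. Capitals mark GGTCA or its reverse complement TGACC, the arm of an estrogen response element.
PGR: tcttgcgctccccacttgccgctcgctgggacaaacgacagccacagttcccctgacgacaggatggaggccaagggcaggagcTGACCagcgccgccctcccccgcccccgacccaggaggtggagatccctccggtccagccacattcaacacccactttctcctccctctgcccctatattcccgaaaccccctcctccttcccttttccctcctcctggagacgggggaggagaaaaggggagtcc
ALPG: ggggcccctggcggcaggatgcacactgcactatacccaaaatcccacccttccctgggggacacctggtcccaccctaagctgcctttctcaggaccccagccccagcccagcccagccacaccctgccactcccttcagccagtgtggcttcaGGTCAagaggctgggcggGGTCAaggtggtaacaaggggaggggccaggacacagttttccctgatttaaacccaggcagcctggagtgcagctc
The match of PGR began 166 bases before the start, and those of ALPG 95 and 77 bases before it, both on the forward strand. Such a short motif is common: of the 9193 measured genes with a promoter in the table, searched on both strands from 250 bases before to 50 after the start, 33.9% held it, as did 31.3% of 342 genes called higher, 30.1% of 558 called lower and 4 of 16 among the largest rises. The whole element GGTCANNNTGACC, which contains both arms, was in 18 of 27305 promoters (0.0659%), in 1 of the 9193 measured genes and in 0 of those called higher or lower. A match describes letters in this window and not a bound site, and its absence says nothing of elements elsewhere.

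Genes of signalling and transcription came next among the rises. EGR3, an immediate early zinc-finger transcription factor, had log2 levels of 2.01, 2.40 and 2.96 in vehicle and 4.92, 5.45 and 5.65 at 100 pM, at least 2.60-fold higher against the floor (limma adjusted p = 5.67e-19). NPPC, the precursor of C-type natriuretic peptide, went from 1.75, 2.25 and 2.50 to 5.06, 5.29 and 5.51, at least 2.44-fold higher. Both genes were thus under the floor on every vehicle array and above it on every 100 pM array. GREB1, an early estrogen receptor target described in breast cancer cells, went from 4.96, 5.13 and 5.33 to 7.48, 7.64 and 7.73. Its vehicle arrays were tight and the groups lay apart by a change of 2.51 ± 0.11 (5.69-fold, limma adjusted p = 2.13e-23). PIM1, a serine/threonine kinase that promotes survival, was called, at 3.84, 3.96 and 4.05 in vehicle, around the floor, and 5.42, 5.81 and 6.01 at 100 pM. HES2, a basic helix-loop-helix repressor, rose by 1.60 ± 0.11 (3.03-fold).

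Enzymes and transporters formed another set of large rises. DHRS3, which reduces retinaldehyde to retinol, had vehicle levels of 2.99, 3.34 and 3.54 and 100 pM levels of 6.60, 6.81 and 6.89, which made it at least 6.90-fold higher with the smallest p of the comparison (limma adjusted p = 7.11e-26). ANPEP, the membrane aminopeptidase N, went from 3.65, 3.93 and 4.80 to 6.52, 6.79 and 6.89, where only vehicle replicate 5, at 4.80, lay well above the floor among the vehicle arrays, and it was called with and without that array. ANO1, a calcium-activated chloride channel, went from 4.38, 4.83 and 5.29 to 7.39, 7.53 and 7.62, a change of 2.64 ± 0.13 (6.24-fold). In each of these genes the groups did not overlap. G0S2, an inhibitor of the triglyceride lipase ATGL, went from 6.85, 7.25 and 7.31 to 8.70, 9.22 and 9.44, well above the floor in both groups (2.01 ± 0.12, 4.02-fold, limma adjusted p = 1.23e-18). SLCO2A1, the prostaglandin transporter, was under the floor in vehicle (3.41, 3.57 and 3.99) and at 5.21, 5.41 and 5.80 at 100 pM, at least 2.73-fold higher. GDPD5, a glycerophosphodiester phosphodiesterase, rose by 1.87 ± 0.23, and by 2.12 ± 0.21 without vehicle replicate 5, which at 6.60 lay closest to the 100 pM arrays.

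Secreted and vesicle proteins completed the leading rises. MLPH, melanophilin, which links RAB27 vesicles to myosin motors, went from 3.95, 4.47 and 4.89 to 6.57, 6.81 and 7.15 (2.36 ± 0.11, 5.15-fold). SCGB2A1, the secretoglobin mammaglobin B, went from 5.16, 5.36 and 5.95 to 7.19, 7.23 and 8.02 (1.93 ± 0.21, 3.81-fold), and OLFML3, another olfactomedin-domain protein, from 3.00, 3.96 and 4.43, around the floor, to 5.41, 5.68 and 5.84. The groups were separate for all of these. MSMB, the secreted beta-microseminoprotein, and RBM24, an RNA-binding protein, were called, but their 100 pM means (3.76 and 3.91) lay under the floor, so no fold is given. Both had levels above the floor only on arrays of 100 and 1000 pM, and entered through those groups. ATXN7L1 was at least 1.81-fold higher. The genes with the smallest p also included moderate rises with little spread, among them EPB41L2, a cytoskeletal protein of the band 4.1 family (1.09 ± 0.05), and SLC6A6, the taurine transporter (2.84-fold, from a median of 7.74 to 9.25).

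**Figure D2:**
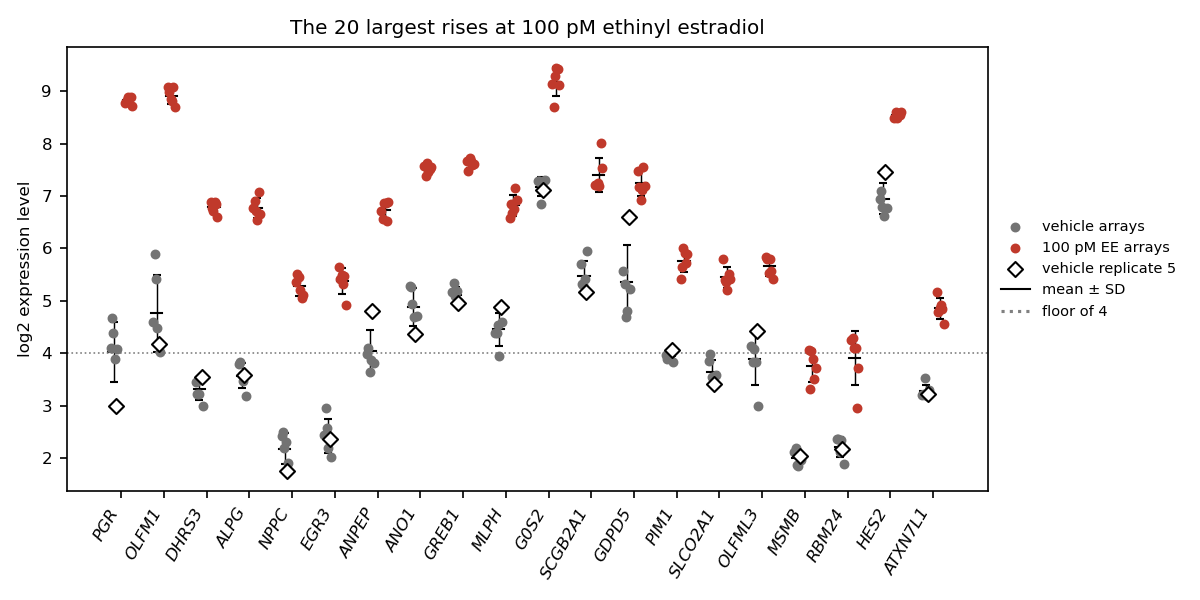
Log2 levels of the 20 genes with the largest rises, in the 6 vehicle arrays (grey, with replicate 5 as an open diamond) and the 6 arrays of 100 pM (red); bars give mean ± SD and the dotted line the floor of 4. The groups do not overlap for any of these genes, and vehicle replicate 5 is the highest vehicle array for 7 of them and the lowest for 6.

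The falls were smaller and vehicle replicate 5 lay at their upper end, being the highest vehicle array for 16 of the 20 largest and the lowest for 3. COL26A1, a collagen gene, went from 5.84, 6.68 and 8.08 in vehicle to 5.03, 5.27 and 5.94 at 100 pM, so the groups overlapped through vehicle replicate 6 at 5.84. Its change was −1.39 ± 0.28 (limma adjusted p = 5.54e-04) and −1.13 ± 0.26 without vehicle replicate 5, which held the 8.08. MFGE8, the secreted glycoprotein lactadherin, had groups that did not overlap (5.46, 5.88 and 7.47 against 4.60, 4.77 and 4.97). Its change was −1.32 ± 0.27, and −1.05 ± 0.25 without vehicle replicate 5, which held the 7.47. KRT80, a type II keratin, went from 4.87, 5.33 and 6.02 to 3.66, 4.07 and 4.29, near the floor, with no overlap (−1.36 ± 0.16, limma adjusted p = 1.37e-08). L1CAM, an adhesion molecule of the immunoglobulin family, was at 3.86, 4.60 and 5.49 in vehicle and under the floor on every 100 pM array (highest 3.67), at least 1.55-fold lower. RAPGEF3, a cAMP-regulated exchange factor for RAP GTPases, lost its call without vehicle replicate 5 (−0.90 ± 0.23 with it and −0.60 ± 0.19 without, limma adjusted p = 0.0543). The other 19 of the 20 largest falls were still called lower without that array.

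The 20 largest falls included 3 contractile or matricellular genes, TAGLN, CCN2 and CNN1. TAGLN, transgelin, an actin-binding protein of smooth muscle, went from 7.98, 8.13 and 8.52 to 6.96, 7.22 and 7.40, with no overlap and well above the floor (−0.99 ± 0.11, a 1.98-fold fall, limma adjusted p = 1.08e-09). CCN2, connective tissue growth factor, went from 7.15, 8.03 and 8.37 to 6.74, 6.86 and 7.45. Here vehicle replicate 5 was the lowest vehicle array and the only vehicle array within the range of the 100 pM arrays, so the change grew from −0.98 ± 0.18 to −1.14 ± 0.17 without it. CNN1, calponin, lay close to or under the floor in vehicle (3.57, 3.83 and 4.32) and under it at 100 pM (highest 2.99), so it was called with no usable fold.

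Other falls of single genes had varied roles. CGNL1, paracingulin of the epithelial junction, fell by 1.13 ± 0.15 on the log2 scale, and NTNG1, a netrin, by 0.97 ± 0.13. TNFAIP2, a TNF-induced protein, fell by 1.08 ± 0.23 and RBP2, a cellular retinol-binding protein, by 0.96 ± 0.16. Enzyme and signalling genes were among them too. P3H2, a collagen prolyl 3-hydroxylase, fell by 0.90 ± 0.12 and RAP1GAP, which turns off RAP GTPases, by 0.86 ± 0.14. IGFBP5, an IGF-binding protein, went from 8.85, 9.05 and 9.52 to 8.07, 8.28 and 8.46, and JUN, an AP-1 subunit, from 6.98, 7.21 and 7.43 to 6.12, 6.35 and 6.58. Neither of these 2 genes had overlapping groups, and their changes were −0.87 ± 0.10 and −0.87 ± 0.08. SMIM5, POU2AF3, LYPD6B and MAMDC2 were the remaining genes of the 20, with changes of −0.95 for POU2AF3 and −0.85 for LYPD6B. SMIM5 went from 4.53, 4.89 and 5.21 to 3.58, 3.79 and 4.30, with a 100 pM mean under the floor, and MAMDC2 was under it on every 100 pM array.

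**Figure D3:**
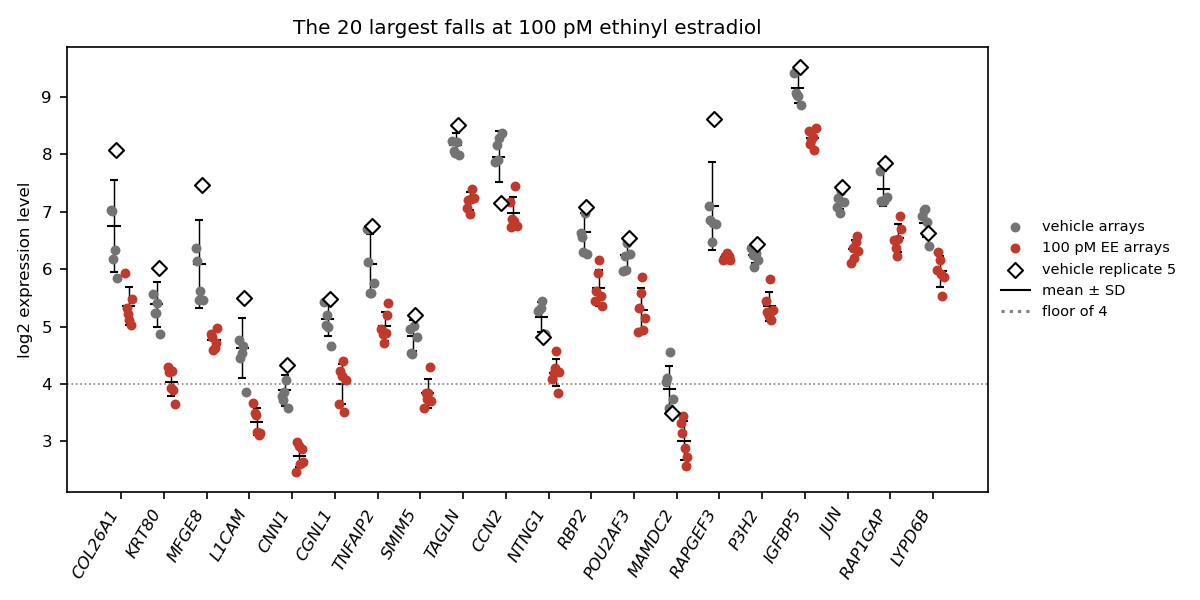
Log2 levels of the 20 genes with the largest falls, drawn as for the rises. The 100 pM arrays (red) lie below the vehicle arrays for 18 genes and overlap them for COL26A1 and CCN2, and vehicle replicate 5 (open diamond) is the highest vehicle array for 16.

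Where a second entering probe set existed it moved the same way: 7 of these 40 genes had 9 such probe sets, and all 9 had the sign of the first, for example −0.74 and −0.82 for JUN.

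The receptor genes themselves did not pass the test. ESR1 was at 8.09, 8.26 and 8.32 in vehicle and 8.10, 8.23 and 8.31 at 100 pM, fully overlapping, with a difference of −0.02 ± 0.05 (limma adjusted p = 0.744) whose sign turned when its probe sets were averaged (0.01). All 6 probe sets of ESR2 had means under the floor in both groups. The list counts from here on stand beside background shares over all genes of 3.85% called higher and 6.27% called lower. Without vehicle replicate 5 these shares were 2.38% and 4.03%. All lists were chosen with earlier results of these data known, so a list count beside these shares is no independent evidence. Among 18 measured estrogen receptor and coregulator genes 2 rose and 1 fell. NRIP1, a corepressor that binds liganded ERα, went from 6.97, 7.54 and 7.79 to 8.90, 8.95 and 9.11 with no overlap (1.49 ± 0.11, 2.82-fold, limma adjusted p = 8.32e-16), while CITED2, a coactivator, fell (−0.50 ± 0.12). The median of this list was −0.06, against −0.02 over all genes. Without vehicle replicate 5 the counts were 1 rise and 2 falls, since LCOR, a corepressor, lost its call without that array or without vehicle replicate 2 (limma adjusted p up to 0.0695), and FOXA1, a pioneer factor of ERα, was (−0.36, adjusted p = 0.0468).

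Of 30 measured estrogen-responsive genes 14 rose, 3 fell and 13 did not pass, with a median of 0.29. This list was drawn up from known targets with earlier results of these data in view, so its direction is no independent evidence. Besides PGR, OLFM1, EGR3, GREB1, MLPH and NRIP1, the largest rises outside the leading set were TGFA, DEPTOR and CA12, which are described with their families below. ELF3, an epithelial ETS factor, fell (−0.71 ± 0.17), as did AGR2, a disulfide isomerase of secretory cells known as estrogen-induced in breast cancer cells (7.61, 7.84 and 8.02 against 7.32, 7.46 and 7.61, with the highest 100 pM array at the level of the lowest vehicle array, −0.36 ± 0.09), and ADCY9, an adenylate cyclase (−0.25 ± 0.07). XBP1 (0.08 ± 0.12), CCND1 (−0.25 ± 0.14) and CTSD (−0.60 ± 0.25), also known as estrogen targets in breast cells, did not pass. Without vehicle replicate 5, 11 rose and 3 fell. RASGRP1, PKIB and MYC were then not called (limma adjusted p = 0.0919, 0.0698 and 0.257).

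Growth factor genes moved in both directions. TGFA, a ligand of the EGF receptor, went from 8.71, 9.22 and 9.41 to 10.13, 10.27 and 10.40 (1.16 ± 0.09, 2.23-fold), and NRG1, a ligand of ERBB3 and ERBB4, from 6.79, 7.15 and 7.27 to 6.33, 6.49 and 6.54 (−0.63 ± 0.08). Neither pair of groups overlapped, and these were the only calls among 11 measured EGF family ligands and receptors, apart from EGFR, which was called lower without vehicle replicate 5 (−0.42, limma adjusted p = 0.0199). In the IGF axis 2 of 12 genes rose and 3 fell. GRB14, an adaptor that inhibits the insulin and IGF receptors, rose by 0.62 ± 0.14. IGFBP3, the main IGF carrier, was highly expressed and fell a little with high precision (12.09, 12.27 and 12.34 against 11.86, 11.90 and 11.97, −0.33 ± 0.04). IGF1R, the IGF receptor, rose (0.35 ± 0.10), but not without 100 pM replicate 6 (limma adjusted p = 0.0559), and IGFBP6 fell, but not without vehicle replicate 5 (0.0676). Without that array the counts were 2 and 4. In the FGF family 1 of 7 genes rose and 2 fell, with and without vehicle replicate 5. FGF18, a secreted ligand, fell (−0.42 ± 0.07), and the receptor FGFR1 rose (0.29 ± 0.08), although its most variable probe set had the opposite sign (−0.21, not called). The other fall was the receptor FGFR2. Its call was lost when any 1 of 5 arrays was left out, vehicle replicate 5 not among them (limma adjusted p up to 0.0691).

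Immediate early transcription factors split as well: 4 of 16 rose and 5 fell, with a median of −0.20. Beside EGR3, FOSL2, an AP-1 subunit of the FOS family, rose 2.01-fold (1.01 ± 0.17), while the AP-1 subunits JUN and JUNB (−0.45 ± 0.11) and the early response genes IER2 (8.41, 8.60 and 9.34 against 7.68, 7.82 and 8.07, −0.81 ± 0.12) fell. IER3, another early response gene, was called lower at levels around the floor (median 4.30 against 3.91). EGR1, the most studied EGR factor, did not pass (−0.31 ± 0.16). The opposite movement of FOSL2 and JUN thus lies within a single dimer family. Without vehicle replicate 5 the counts were 3 and 5. Of 13 phosphatases, Sprouty proteins and ETS factors that follow ERK activity 0 rose and 2 fell, ETV5 (−0.49 ± 0.13) and SPRY1 (−0.31 ± 0.07), again with and without that array.

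Targets of YAP and of SRF, the factors that read cell tension and the actin cytoskeleton, held 0 rises and 11 falls among 20 measured genes, with a median of −0.38. The count was 0 and 11 without vehicle replicate 5 too, although CNN2 was then not called (limma adjusted p = 0.0925) and ANKRD1 was (adjusted p = 0.0213). The background share of genes called lower was 6.27%. This list, like the others, was chosen with earlier results of these data known, so its counts beside that share are no independent evidence. With the 2 genes that have only a bound set to it, the median was −0.36. Besides CNN1, TAGLN and CCN2, MYL9, a myosin light chain, fell (−0.80 ± 0.20, and −0.57 ± 0.18 without vehicle replicate 5, where it lay at 7.90 against 6.38 to 6.89 in the other vehicle arrays), as did ACTA2, smooth muscle actin (8.03, 8.28 and 8.91 against 7.30, 7.57 and 7.97, −0.74 ± 0.16). CCN1, a matricellular protein (−0.78 ± 0.15), TPM1, a tropomyosin (−0.39 ± 0.05), and VCL, vinculin (−0.20 ± 0.06), chosen after their values were seen, also fell. ACTB, cytoplasmic actin, which SRF also controls, was lower (−0.22 ± 0.06, and −0.17 ± 0.05 without vehicle replicate 5).

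The promoter of CCN2 is shown because it carries 3 copies of GGAATG, a motif bound by the TEAD partners of YAP, in capitals. The run is the 250 bases before the start, from RefSeq on GRCh38.p14, at chr6:131951373-131951622 on the minus strand and read along the gene.
CCN2: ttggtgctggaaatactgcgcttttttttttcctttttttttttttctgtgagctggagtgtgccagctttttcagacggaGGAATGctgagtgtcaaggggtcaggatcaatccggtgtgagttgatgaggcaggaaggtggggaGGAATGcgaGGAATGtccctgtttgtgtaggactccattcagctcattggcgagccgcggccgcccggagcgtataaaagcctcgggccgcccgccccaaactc
The copies began 169, 104 and 95 bases before the start. Searched on both strands, the motif was in 10.5% of the promoters of measured genes, in 7.6% of those called higher and 13.3% of those called lower. Of the largest falls 7 of the 16 with a promoter in the table held it (43.8%), and of the largest rises 3 of 16. In the YAP and SRF list it was in 3 of 8 called genes and 5 of 15 measured ones. These are descriptions of letters, and the 16 genes were chosen for their change.

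The TGF-beta pathway, which shares targets with that list, did not move as a group: 2 of 20 genes rose and 3 fell, with a median of 0.02. THBS1, the matrix glycoprotein thrombospondin 1, which can activate latent TGF-beta, went from 8.55, 9.26 and 9.52 to 10.34, 10.66 and 10.81 with no overlap (1.46 ± 0.11, 2.75-fold, limma adjusted p = 3.91e-14). SMAD6, an inhibitory SMAD, fell (−0.49 ± 0.08), as did the ligand TGFB2 (−0.48 ± 0.11). These 3 calls held without vehicle replicate 5, when the counts were 2 and 2.

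Genes of the secretory and receptive endometrium gave 3 rises and 2 falls among 15. SCGB1D2, a secretoglobin like SCGB2A1, went from 3.63, 3.81 and 4.21 to 4.25, 4.63 and 5.13 and was called higher, with a vehicle mean under the floor. SOX17, a transcription factor of the Mullerian epithelium, rose from 7.48, 7.65 and 7.87 to 8.08, 8.29 and 8.36 (0.58 ± 0.07). CLU, the secreted chaperone clusterin, fell (−0.68 ± 0.16). Without vehicle replicate 5 there were again 3 rises and 2 falls, but only CLU was a fall in both analyses. Of 10 Mullerian transcription factors 2 rose, SOX17 and SALL1 (0.41 ± 0.12), the latter not called without vehicle replicate 3 or without 100 pM replicate 4 (limma adjusted p up to 0.0541).

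The median of 13 prostaglandin genes was 0.20, and the background share called higher was 3.85%, or 2.38% without vehicle replicate 5. Of the 13 genes 4 rose and 0 fell, with and without that array. Beside the transporter SLCO2A1 these were PTGER3, the EP3 receptor of prostaglandin E2 (4.92, 5.35 and 5.69 against 5.96, 6.42 and 6.56, 1.04 ± 0.15), PTGS2, the inducible cyclooxygenase, and PLA2G4A, the phospholipase that frees arachidonic acid. So a phospholipase, a cyclooxygenase, a transporter and a receptor were each higher. The list was chosen with earlier results of these data known, so its counts are no independent evidence. PLA2G4A depended in size on vehicle replicate 5, which lay at 6.94 against 7.96 to 8.15 in the other vehicle arrays, and changed by 0.49 ± 0.12 with it and 0.30 ± 0.09 without it. PTGS2 stayed close to the floor, at medians of 3.94 in vehicle and 4.52 at 100 pM.

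Ion, acid-base and transport genes gave further rises. Of 17 chloride channels and carbonic anhydrases 3 rose and 1 fell, the fall being lost without vehicle replicate 5. The rises were ANO1, CA2 (4.43, 5.59 and 5.79 against 6.53, 6.70 and 6.82, 1.28 ± 0.15, and 1.09 ± 0.12 without that array, which held the 4.43) and CA12 (5.98, 6.11 and 6.54 against 6.97, 7.23 and 7.43, 1.01 ± 0.12). CA2 and CA12 are carbonic anhydrases, which interconvert carbon dioxide and bicarbonate. Among 18 amino acid transporters, set against the same background shares as the prostaglandin genes, 5 rose and 0 fell, with and without that array. They included SLC6A6, SLC3A2, the heavy chain of several exchangers (0.52 ± 0.06), and SLC7A11, the cystine/glutamate exchanger (0.51 ± 0.13, and 0.33 ± 0.10 without vehicle replicate 5). Of 15 vesicle transport genes MLPH alone was called, while its partners RAB27A (0.13 ± 0.11) and MYO5A (0.02 ± 0.11) did not pass. Likewise DHRS3 was the sole rise among 10 retinoid genes, where CYP26B1, which degrades retinoic acid, fell (−0.42 ± 0.12).

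Lipolysis and mTOR genes followed the same pattern of single large changes. DEPTOR, an inhibitor of mTOR complexes, went from 8.80, 9.16 and 9.39 to 9.96, 10.19 and 10.28 (1.03 ± 0.07, 2.04-fold) among 20 measured mTOR genes, of which 2 rose and 2 fell. Without vehicle replicate 5 the counts were 1 and 1, since SESN1, a stress-induced mTOR inhibitor, was not called (limma adjusted p = 0.0584). Of 12 lipid droplet genes 2 rose and 1 fell, and without vehicle replicate 5 G0S2 was the only call. Its target PNPLA2, which encodes ATGL, did not pass (−0.16 ± 0.11).

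Of 13 Notch genes 0 rose, 6 fell and 7 did not pass, and 0 and 4 were called higher and lower without vehicle replicate 5, against background shares called lower of 6.27% and 4.03%. JAG1, a Notch ligand, was at 9.82, 9.93 and 10.06 in vehicle and 9.11, 9.35 and 9.40 at 100 pM (−0.62 ± 0.05, limma adjusted p = 1.39e-13). HES1, the best known Notch target, was at 9.12, 9.26 and 9.36 against 8.61, 8.69 and 8.78 (−0.56 ± 0.06). Both genes were strongly expressed with small spread, and neither had overlapping groups. NOTCH3 was called lower around the floor (median 4.16 against 3.67), and NOTCH1 did not pass (−0.10 ± 0.13). The median of the list was −0.16.

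Wnt genes showed 3 rises and 2 falls among 26. LEF1, a nuclear effector of beta-catenin, rose (0.53 ± 0.11), as did the receptors FZD5 (0.36 ± 0.08) and LGR4 (0.40 ± 0.10, and 0.29 ± 0.08 without vehicle replicate 5), while the ligand WNT7A fell (−0.45 ± 0.12). CTNNB1 (0.05 ± 0.06) and the feedback target AXIN2 (0.01 ± 0.14) did not pass. Without vehicle replicate 5 FZD2 was no longer called (limma adjusted p = 0.0766), which left 3 and 1.

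Among cell cycle genes after 72 h, the mitosis and DNA replication lists held fewer calls than the G1 list. Over all genes 10.1% were called in either direction. None of 30 mitosis genes was called (0 rises, 0 falls), and their log2 changes ran from −0.35 to 0.25 with a median of 0.04. MKI67, a marker of cycling cells, was at 9.06, 9.18 and 9.59 in vehicle and 9.16, 9.26 and 9.51 at 100 pM (0.06 ± 0.09, limma adjusted p = 0.65), with the sign turned when its probe sets were averaged (−0.03). Of 34 DNA replication genes 1 rose, RFC3 of the clamp loader (0.35 ± 0.10), and 1 fell, and both calls were lost without vehicle replicate 5 (RFC3 0.21, limma adjusted p = 0.073). Among 25 genes of the G1 phase 4 rose and 1 fell, and 1 and 1 without that array. The calls that held were CCND2, cyclin D2 (7.09, 7.52 and 7.87 against 7.96, 8.15 and 8.35, 0.67 ± 0.14), and the kinase CDK6 (8.27, 8.31 and 8.49 against 7.66, 7.87 and 7.93, −0.50 ± 0.05). A D-type cyclin thus rose while a kinase that pairs with such cyclins fell. MYC, called with all arrays (0.39 ± 0.13), was at 8.04 on vehicle replicate 5 against 9.11 to 9.46 on the other vehicle arrays. It was not called without that array or without any of 100 pM replicates 1 to 5 (limma adjusted p up to 0.257).

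Of 23 p53 targets 2 rose and 3 fell. PLK2, a polo-like kinase, had the firmest change (9.89, 10.24 and 10.34 against 9.39, 9.51 and 9.63, −0.69 ± 0.05), and the proapoptotic genes moved apart, with PMAIP1 (NOXA) higher (0.57 ± 0.12) and BBC3 (PUMA) called lower around the floor (median 4.33 against 3.71). TP53INP1, an autophagy and cell death regulator, fell (−0.40 ± 0.07). CDKN1A, the p21 inhibitor, did not pass (0.07 ± 0.12). SESN1 is also on this list and its call was lost without vehicle replicate 5 (limma adjusted p = 0.0584), so the list then gave 1 rise and 3 falls.

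Matrix and adhesion genes held calls in both directions. Of 20 collagen genes, counted with the collagen chaperone, 3 rose, 4 fell and 13 did not pass, with a median of −0.29. COL1A2 (7.12, 7.43 and 7.80 against 7.98, 8.32 and 8.72, 0.90 ± 0.14) and COL1A1 (8.31, 8.83 and 9.31 against 7.79, 8.07 and 8.22, −0.77 ± 0.15), whose products join in type I collagen, moved in opposite directions with no overlap in either. COL9A3 (1.03 ± 0.15) and COL6A1 (0.37 ± 0.07) also rose, and the counts without vehicle replicate 5 were 3 and 3. Among 18 integrin, laminin and related adhesion genes 1 rose, 6 fell and 11 did not pass, and 2 and 5 without vehicle replicate 5. ITGA6, the alpha 6 integrin subunit, a laminin receptor, was the rise in both (7.97, 8.18 and 8.39 against 9.03, 9.42 and 9.57, 1.16 ± 0.10, limma adjusted p = 9.99e-13).

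Of 26 junction genes 1 rose and 5 fell, and 1 and 4 without vehicle replicate 5. GJA1, connexin 43, rose slightly (0.19 ± 0.04). CLDN1, claudin 1 of tight junctions, was at 9.12, 9.80 and 9.89 in vehicle and 8.90, 8.99 and 9.16 at 100 pM, where vehicle replicate 5 (9.12) alone lay within the range of the 100 pM arrays (−0.70 ± 0.08, and −0.82 ± 0.06 without it). JUP, plakoglobin, fell too, with that array far above the others (8.31 against a median of 7.38, −0.75 ± 0.13, and −0.60 ± 0.12 without it), and CDH3, P-cadherin, fell by 0.59 ± 0.13. CDH1, E-cadherin, did not pass (−0.05 ± 0.05). Of 8 keratins KRT80 and KRT7 (6.02, 6.34 and 6.43 against 5.52, 5.66 and 5.76, −0.61 ± 0.08) fell, while KRT8 (−0.09 ± 0.08) and KRT18 (−0.09 ± 0.05) did not pass.

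Calls in metabolic and stress programmes stand beside 10.1% of all genes called in either direction. There were 0 rises and 0 falls among 29 oxidative phosphorylation subunits (changes from −0.21 to 0.43) and among 24 cholesterol and fatty acid genes (−0.45 to 0.28). Of 26 genes of the unfolded protein response ASNS, asparagine synthetase, rose (0.17 ± 0.05) and AGR2 fell, and of 18 heat shock genes BAG3, a co-chaperone of HSP70, rose (0.44 ± 0.07). MYC was the single call among 26 MYC and ribosome biogenesis genes. Of 27 hypoxia and glycolysis genes 3 rose and 1 fell, and 2 and 0 without vehicle replicate 5. BNIP3, a mitophagy receptor, held (0.42 ± 0.06), whereas LDHA, lactate dehydrogenase A (0.23 ± 0.07), did not (limma adjusted p = 0.119). LDHA stood at 11.20 on vehicle replicate 5, against 11.93 to 11.99 on the other vehicle arrays, and was also not called without 100 pM replicate 1.

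Apart from the NRF2 list, the calls on the lists in this paragraph were all falls. Over all genes 3.85% were called higher and 6.27% lower. ABCC3, a multidrug resistance transporter on the NRF2 list, fell (6.36, 6.53 and 6.70 against 5.42, 5.83 and 5.97, −0.79 ± 0.11), and 2 of the 14 genes of that list rose, of which only SLC7A11 was called without vehicle replicate 5. Of 14 interferon and antigen presentation genes 2 fell, ISG15, a ubiquitin-like protein (−0.48 ± 0.10), and IFITM2, the latter not called without vehicle replicate 1 or 100 pM replicate 6 (limma adjusted p up to 0.0662). TNFAIP2 was the call among 6 NF-kB genes. Of 17 steroid-converting enzymes 3 fell, HSD17B14 (−0.44 ± 0.11) and the near-identical AKR1C2 (−0.45 ± 0.11) and AKR1C1 (−0.42 ± 0.11), which cross-hybridization may not keep apart. The AKR1C1 call was lost without vehicle replicate 5 (limma adjusted p = 0.0556). Of 17 other nuclear receptors 0 rose and 4 fell, and 0 and 2 without that array. Among 12 reference genes ACTB alone was called, and GAPDH was at 0.03 ± 0.03 with a sign that turned without vehicle replicate 5 and with array weights (−0.00865 and −0.01).

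**Figure D4:**
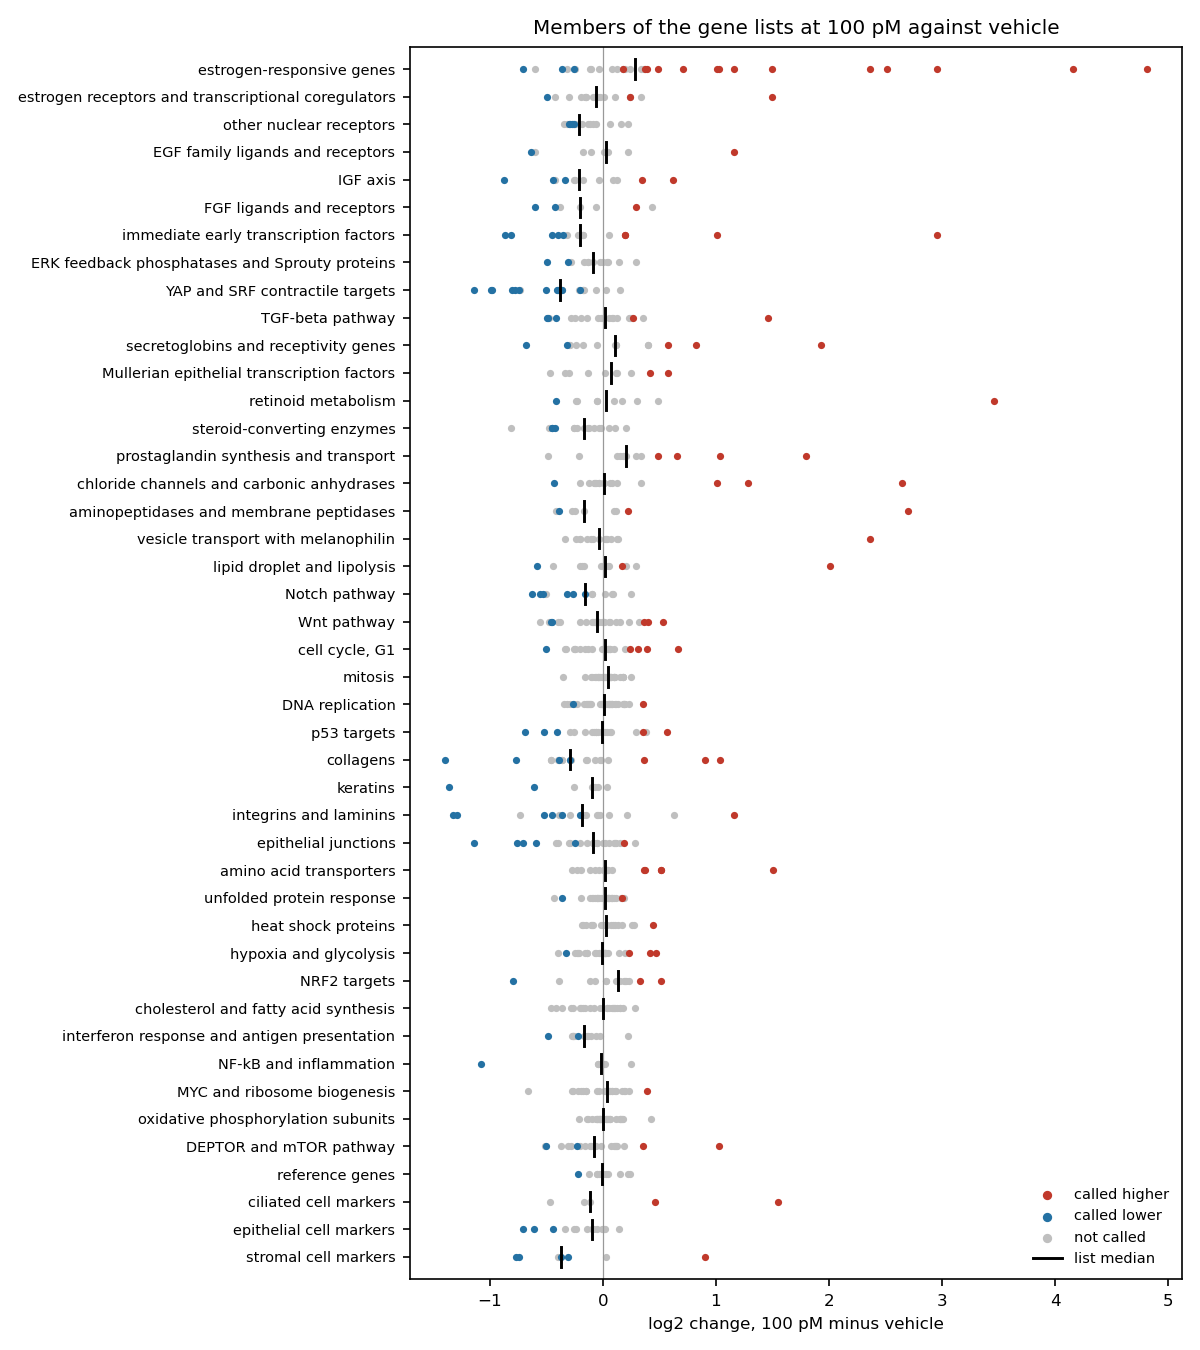
Log2 change at 100 pM against vehicle of the measured members of each gene list with at least 5 members; each point is a gene (red called higher, blue called lower, grey not called) and the black line is the list median. The YAP and SRF list has 11 blue and 0 red points and a median of −0.38, and the estrogen-responsive list reaches from −0.71 to 4.81. The lists were chosen with earlier results of these data known.

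Cell type markers were checked against the label of an epithelial line. All 15 epithelial markers with a probe set, among them EPCAM, CDH1 and KRT8, were above the floor on at least 1 of the 12 arrays, while all 15 immune and all 10 endothelial markers with a probe set lay at or under it on all 12. Of the stromal markers 10 of 17 did so, including PDGFRA, PDGFRB, DCN, LUM and THY1. The mean level of the 15 epithelial markers was 8.32 to 8.58 in vehicle and 8.22 to 8.27 at 100 pM, that of the 7 measured stromal markers 7.31 to 7.53 and 7.14 to 7.30, and that of the 5 measured ciliated markers 6.20 to 6.60 and 6.60 to 6.85. Of the epithelial markers 3 fell (ELF3, KRT7 and ESRP2) and 12 did not pass, and the stromal list held 1 rise and 4 falls (1 and 2 without vehicle replicate 5), of which COL1A2, COL1A1 and ACTA2 are also in the collagen or contractile lists. CAPS, calcyphosine, which ciliated cells express, was 1 of 2 rises among the ciliated markers (1 without vehicle replicate 5) and went from 8.01, 8.25 and 8.59 to 9.62, 9.83 and 10.00 (1.55 ± 0.08, 2.92-fold), while FOXJ1, the regulator of motile cilia, did not pass (median 4.07 against 3.61) and 10 of 15 ciliated markers were under the floor on every array. Whether fewer cells of a type or less RNA per cell lies behind a level cannot be told apart in bulk RNA, and the part of these markers in the other results was not tested.

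A reference with no vehicle array was given by the 13 arrays of 0.1 and 0.3 pM. Against them 1044 genes were called at 100 pM (9.43%), 416 higher and 628 lower. This comparison shares its 100 pM arrays with that against vehicle, so values are given side by side and not counted as support. PGR was 4.65 above the low concentrations and 4.81 above vehicle, GREB1 2.50 and 2.51, TAGLN −0.96 and −0.99, COL26A1 −1.13 and −1.39, MFGE8 −1.08 and −1.32, and RAPGEF3 −0.69 and −0.90. The low-concentration reference held an array with 3′ bias of its own, 0.3 pM replicate 2. Its 3′ minus 5′ difference was 3.26 for beta-actin and 0.73 for GAPDH. It was the highest of the 13 arrays for COL26A1 (7.81), MFGE8 (7.31) and RAPGEF3 (8.22), and its part in the values of these genes was not tested. The YAP and SRF list gave 0 genes higher and 12 lower in this comparison, and the prostaglandin list 4 and 0. MYC did not pass (0.20, limma adjusted p = 0.26). The NRF2 list gave 0 genes higher and 1 lower, so SLC7A11 and GCLC were not called in this comparison either. The amino acid transporter list gave 4 and 0. The count was 1842 without the 4 arrays of the series with the highest beta-actin 3′ minus 5′ difference, and 2598 with array weights.

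Between 10 and 100 pM 83 genes were higher at 100 pM (0.749%) and 26 lower (0.235%). Of the 20 largest rises 19 were still higher at 100 than at 10 pM, among them PGR (1.89), EGR3 and NPPC, the last 2 of which had 10 pM means under the floor, the exception being SLCO2A1 (0.41, limma adjusted p = 0.105). Of the 20 largest falls 4 were lower at 100 than at 10 pM (CNN1, TAGLN, JUN and LYPD6B). SMR3B, a salivary-type secreted peptide gene, fell in this step (−0.79). BLACAT1, a long non-coding RNA, and CNN1 were called lower with 100 pM means under the floor (3.88 and 2.75), CNN1 being under it at 10 pM too. TGFA (0.31, adjusted p = 0.108), CA12 (0.43, adjusted p = 0.0913) and KRT80 (−0.55, adjusted p = 0.108) did not pass by limma. Without those 4 arrays 226 genes were called in this step, and 70 with the probe set of highest variance for each gene.

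Between 100 and 1000 pM 0 of 11075 genes were called (0.0%) by limma, with 305 at an unadjusted p under 0.05 and a lowest adjusted p of 0.748. The largest absolute difference of any gene was 0.52 on the log2 scale, and among the 40 leading genes it was 0.42. For 18 of the 20 largest rises the 1000 pM mean lay above the 100 pM mean, for example by 0.32 ± 0.21 for PGR, 0.38 ± 0.13 for DHRS3 and 0.42 ± 0.16 for ANPEP, and for 9 of the 20 largest falls it did so. In the 1000 pM group replicate 6 had a 3′ minus 5′ difference of 2.67 for beta-actin and 0.40 for GAPDH. It was the highest 1000 pM array for ANPEP (8.02), COL26A1 (6.34), RAPGEF3 (6.95) and IGFBP5 (8.79), and the lowest for PGR (8.82). Its part in these differences of means was not tested. A p that misses the threshold does not show that the levels are equal.

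**Figure D5:**
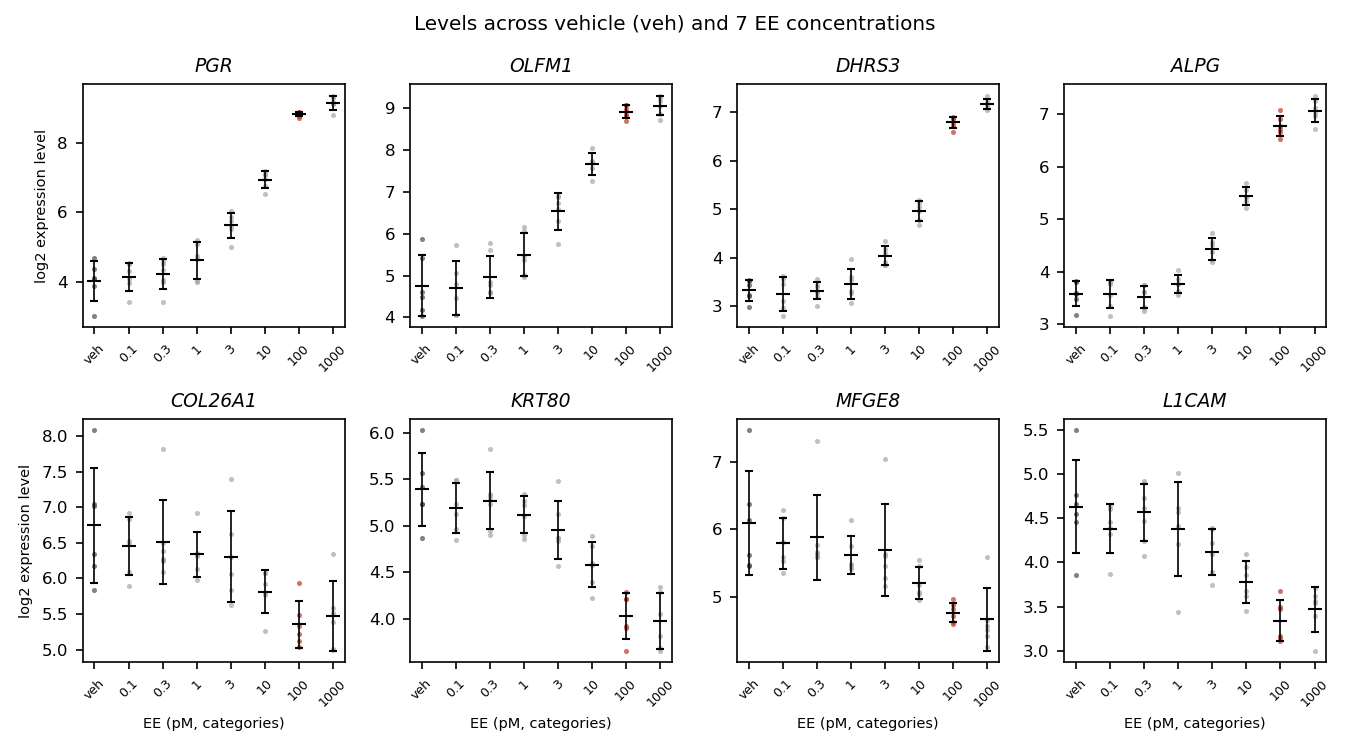
Log2 levels of the 4 genes with the largest rises (top) and falls (bottom) in vehicle and at 7 EE concentrations, placed as categories; points are arrays (100 pM in red) and bars give mean ± SD. PGR rises from 4.02 in vehicle to 8.83 at 100 pM and lies at 9.15 at 1000 pM, and KRT80 falls from 5.39 to 4.03 and lies at 3.98.

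Single arrays also decided calls of smaller changes. Of the 153 called genes picked by the naming rules 42 lost their call when 1 of the 12 arrays was left out, 30 of them when that array was vehicle replicate 5, and for 9 this was the only such array. Of the 40 largest changes RAPGEF3 was the only gene to do so.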

How the data were processed

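RNA of 12 samples was read on 1 Affymetrix HT HG-U133 Plus PM array each, per the labels. The deposited log2 values of 54715 probe sets were used as given; the submitters' processing notes name GCRMA and Partek, with no version or role. GCRMA, where used, corrects background, normalizes between arrays and summarizes probes into 1 value, and can distort low signals. The platform annotation gave a single symbol for 40920 probe sets, more than 1 for 864 and no symbol for 12931, and 40864 were found in RefSeq (GRCh38.p14) by Entrez identifier. A probe set entered with a log2 value above 4 on at least 6 of all 49 arrays (22721 did, 2925 of them without a single symbol), and the entering probe set of highest mean stood for its gene. Genes at or under 4 on all arrays of a group get a bound only, with those arrays set to 4. Such genes entered through other groups, so their levels above 4 there are in part a condition of entry.

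In limma 3.58.1 under R 4.3.3, means of the 8 groups were estimated together with an intensity trend, and p-values were adjusted by Benjamini-Hochberg over 11075 genes per contrast. The code was tested on simulated data. Named genes were called genes with the 6 arrays of 100 pM all above or all below the mean of vehicle: the 20 largest in each direction, the 5 smallest p, the 4 largest calls per list and direction, the 3 largest per direction between neighbouring concentrations, and ESR1, ESR2, PGR, GREB1, ALPP, MKI67, ACTB and GAPDH. The members and the 47 lists were chosen with earlier results of these data known, and no list was tested. Alternatives changed the arrays in the fit, covariate, replicate block, filter, variance prior, array weights, normalization, probe sets and threshold. The labels name no batch. No 2 arrays held identical values. The number of arrays limits the precision. Figures used Python 3.11.15, pandas 2.3.3 and matplotlib 3.10.9. One gene that the naming rule picks is not reported here.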

Additional observations from a re-analysis of the deposited data

Results flagged for a closer look

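Of 320 groups of 6 arrays that were examined, 39 held an array standing apart from the other 5 by Dixon's 95% criterion, which chance meets in about 1 of 20 groups. The array measures themselves were among them. Vehicle replicate 5 lay at 4.62 for the beta-actin 3′ minus 5′ difference (others 0.85 to 2.06), at 1.79 for GAPDH (others −0.10 to 0.19) and at an SD from the group mean of 0.561 (others 0.153 to 0.206). In the 100 pM group replicate 5 had the highest such SD (0.166, others 0.120 to 0.137).

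Of the 27 gene levels that stood apart in the vehicle group 26 were those of replicate 5. It was the highest array (log2 level) for RAPGEF3 (8.62), RXRA (7.23), IER2 (9.34), MYL9 (7.90), AKR1C2 (11.20), CHAF1A (9.15), LAMA5 (9.55), JUP (8.31) and MKI67 (9.59). It was the lowest array for PLA2G4A (6.94), CA2 (4.43), FABP5 (10.52), LGR4 (6.88), MYC (8.04), CCNE2 (7.92), RFC3 (8.04), SESN1 (5.48), ITGB6 (6.20), CLDN1 (9.12), SLC7A11 (9.21), BNIP3 (8.22), LDHA (11.20), GCLC (7.68), IFITM2 (8.42), ESR1 (8.09) and GAPDH (12.39). The remaining level was that of ATXN7L1, with replicate 3 highest at 3.52.

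In the 100 pM group 8 gene levels stood apart, spread over 4 arrays. Replicate 2 was highest for PTGS2 (4.77) and COL6A1 (9.03) and lowest for SLC7A11 (10.40). Replicate 4 was highest for AKR1C2 (10.53) and E2F8 (6.58), replicate 5 highest for SMIM5 (4.30) and lowest for PTGER3 (5.96), and replicate 6 lowest for ITGB6 (6.25).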

How the results depend on the processing

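The 1120 genes called against vehicle (426 higher, 694 lower) became 710 to 1790 when 1 array was left out, without vehicle replicate 5 and without vehicle replicate 6 respectively (264 to 632 higher, 446 to 1158 lower). They became 290 (135 and 155) when only the groups of the contrast were fitted, 718 (272 and 446) with the probe set of highest variance and 482 (206 and 276) at an adjusted p under 0.01. The 195 genes changed at least 1.5-fold became 157 to 293 with 1 array left out. Same-numbered deviations correlated at 0.00379 to 0.257, positive in every pair and over 0.1 in 4 of 6. The rule for pairing asked for every pair to be over 0.1, so the main fit held no replicate block. Spread shared by replicate number may thus remain in that fit. With the replicate block in a fit of vehicle and 100 pM alone the counts were 217 (110 and 107) and 127, and with the block over all groups 1301 (511 and 790) and 200. The 1044 calls against the pooled low concentrations became 814 to 1412 with 1 array left out, 1842 without the 4 arrays of highest beta-actin 3′ minus 5′ difference, 2056 with the actin difference as a covariate, 2598 with array weights and 594 at 0.01. The 109 calls against 10 pM became 83 to 137 with 1 array left out, and 226, 201 and 307 with those 3 settings, 194 with only the groups of the contrast, and 70 with the probe set of highest variance as well as at 0.01. Between 100 and 1000 pM the count was 0 in every alternative. The cause of these shifts was not tested. Signs turned for FGFR1 (−0.21), FBN1 (0.0923) and ESR1 (0.0343) with the probe set of highest variance, for ESR1 with 1 array left out (−0.0534 to 0.000685), for ESR1 (0.00543) and MKI67 (−0.0331) with probe sets averaged, and for GAPDH with 1 array left out (−0.00865 to 0.0422), without the 4 arrays (−0.00865) and with array weights (−0.0130). Levels near the floor of 4 limit what can be said of low genes.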
